A study of Homo sapiens with 6 samples.

Results

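The ATF4 and amino acid stress response was followed through 38 genes chosen by symbol, namely the kinases that phosphorylate eIF2, the subunits that direct its dephosphorylation, ATF4 and related transcription factors, genes that ATF4 is known to control, and amino acid transporters. All 38 were among the 27470 genes of the deposited count table, and 33 of them had enough reads to be tested. RNA came from 22Rv1-ABHD5 cells, a human prostate cancer cell line that carries ABHD5 stably on a lentiviral vector behind a doxycycline (Dox)-inducible promoter. ABHD5 is the coactivator of the triglyceride lipase ATGL. The cells were cultured for 48 h without Dox (3 libraries) or with Dox (3 libraries), and both groups carry the transgene and were selected with G418. The methods describe drug-resistant cells and do not say whether these are a single clone. No library of parent cells with Dox was analysed here, so Dox and ABHD5 cannot be told apart.

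eIF2 brings the initiator tRNA to the ribosome, and its phosphorylation slows general translation. Each kinase answers a different stress: GCN2 (EIF2AK4) uncharged tRNA, PERK (EIF2AK3) unfolded protein in the endoplasmic reticulum, HRI (EIF2AK1) heme shortage and mitochondrial stress, and PKR (EIF2AK2) double-stranded RNA. While most translation slows, ATF4 mRNA is translated more, because upstream reading frames otherwise hold ribosomes back from it. The ATF4 protein binds DNA with C/EBP family partners and induces genes for amino acid synthesis and uptake, feedback regulators and, when stress lasts, regulators of cell death. Much of the control of this pathway therefore acts on protein, which mRNA counts do not show.

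The libraries held 3394672 to 7271771 counts on genes. Reads on no gene made up 32.5% to 34.6% of those listed without Dox and 35.6% to 39.5% with Dox, and the part of this difference in the results was not tested. Values below are CPM, counts divided by the library total and by a TMM factor, which sets the bulk of genes level between libraries. Since 3ʹ mRNA libraries yield reads from the end of each transcript next to the poly(A) tail, a CPM follows the number of transcripts and not their length. ABHD5 stood at 58.0 to 63.5 CPM without Dox and 91.7 to 130.8 with Dox, so that each library labelled as overexpressing it lay above each control. Whether reads from the vector transcript were counted on ABHD5 was not tested, so these values may not give the size of the overexpression. Of 9 prostate epithelial markers, 8 had at least 10 counts in every library, and the summed level of all 9 was 1720 to 1820 CPM without Dox and 1130 to 1250 with Dox, a difference whose part in the results was not tested. Endothelial markers were at 0, and summed markers of white blood cells and of fibroblasts stayed at or under 9.98 CPM. Log2 levels correlated across genes with r of 0.973 to 0.986 within groups and 0.933 to 0.954 between them, genes not being independent replicates. The labels do not say whether replicates were separate cultures, so p-values measure the spread between these libraries, which may be technical. In bulk RNA, fewer cells of a kind and less RNA per cell cannot be told apart.

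ATF4 and its C/EBP partners bind a composite element whose core can be written TGATGNAA. This core was searched on both strands in the windows from 250 bases before to 50 after the start sites that RefSeq lists (GRCh38.p14), where 32 of the 38 members were found. EIF2AK1, GPT2, NUPR1, PYCR1, SLC7A11 and SLC7A3 had no entry in the table. At least 1 match stood in a window of 12 of the 32 members (37.5%), against 4.46% of all 27305 genes. Counted by window, 12 of 54 member windows (22.2%) held a match, against 3.62% of all 35116 windows. The members had been picked in part as known ATF4 targets, and several have more than 1 listed start. The matches are printed with 10 bases on either side, or as far as the window reaches, on the strand that reads TGATGNAA, with the matching letters in capitals. They are shown because the same letters stand near members that rose, fell or did not pass the test below, and near JDP2 and FGF21, which were not tested.
CHAC1 at chr15:40953252-40953279, minus strand: ctggcaggagTGATGCAAcggcagggga
ASNS at chr7:97872459-97872486, minus strand: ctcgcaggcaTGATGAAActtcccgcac
SLC1A5 at chr19:46784894-46784921, minus strand: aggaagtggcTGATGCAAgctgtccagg
ATF3 at chr1:212565206-212565233, plus strand: aaggtcaggaTGATGGAAggctgtcata
CEBPG at chr19:33374061-33374088, plus strand: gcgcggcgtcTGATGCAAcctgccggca
JDP2 at chr14:75427996-75428023, plus strand: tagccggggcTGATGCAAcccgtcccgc
FGF21 at chr19:48755460-48755487, minus strand: tcctcctcccTGATGCAAtcctggtgtt
PPP1R15B at chr1:204412027-204412054, minus strand: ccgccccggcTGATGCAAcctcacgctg
SLC1A4 at chr2:64989382-64989409, minus strand: cggctggagaTGATGCAAacgggagccg
SLC7A1 at chr13:29595664-29595691, minus strand: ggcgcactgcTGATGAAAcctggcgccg
SLC38A1 at chr12:46266503-46266530, minus strand: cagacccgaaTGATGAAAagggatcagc
SLC3A2 at chr11:62881726-62881748, minus strand: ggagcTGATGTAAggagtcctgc

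The letters TGATGCAA recurred in 7 of the 12 lines and TGATGAAA in 3. In ASNS the first base of the match lay 68 bases before a listed start site, and in SLC1A5 97 before. In CHAC1, with the match on the opposite strand, it lay 209 before. Each of these starts lies inside its GENCODE 44 gene, so none is the outermost start of the gene. By GENCODE 44 these 3 matches and those of SLC1A4 and SLC7A1 fall in untranslated exon sequence of some transcript of the same gene, those of CEBPG, JDP2 and SLC38A1 in an intron, that of SLC3A2 in coding sequence and those of ATF3, FGF21 and PPP1R15B outside the gene model. Of the members with a window, 3 of 8 that passed the test and 9 of 24 others, tested or not, held the core. A match is a description of the letters and not evidence of a bound site.

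The members did not move as a block. Of the 33 tested, 8 were lower and 4 were higher with Dox at an adjusted p under 0.05 (quasi-likelihood test of edgeR, Benjamini-Hochberg adjusted over the 12233 genes tested), and 21 did not pass. Over all genes tested, 25.5% passed, with 13.7% lower and 11.9% higher. Every adjusted p below comes from this test, and log2 fold changes are written ± their standard error. The median log2 fold change was -0.15 over the tested members and 0.02 over all genes tested. All libraries with Dox lay below all libraries without Dox for 12 tested members and above them for 6, where the background was 20.5% and 19% of genes. With library totals alone as the scale the split became 7 lower and 6 higher members, and over all genes it moved the share of calls that were higher from 46.4% to 65.7%. Without replicate 2 without Dox 1 member was higher, and without replicate 3 with Dox 2 were. The falls lay among amino acid enzymes, 2 transporters and the regulators FAM129A, NUPR1 and TRIB3, and the rises were those of EIF2AK3, ATF5, CHAC1 and SLC7A11.

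**Figure D1:**
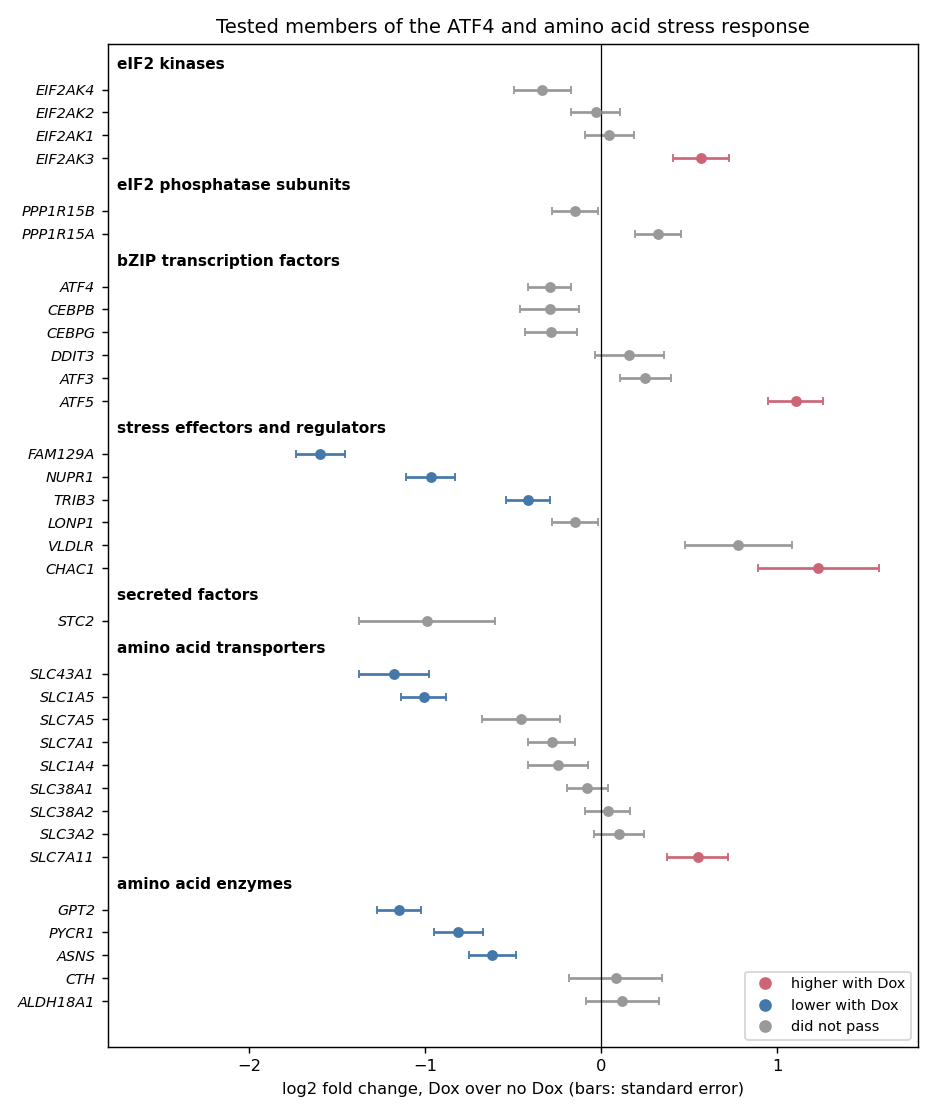
Log2 fold change of the 33 tested members, Dox over no Dox, ordered by role, with the standard error as bars (n = 3 libraries per group). Red points passed the test as higher (4), blue as lower (8) and grey did not pass (21), and red and blue points both occur among the effectors, from FAM129A at -1.59 to CHAC1 at 1.23, and among the transporters.

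Among the 4 eIF2 kinases, EIF2AK3 alone passed the test, a share of 25% where 25.5% of all genes tested passed. EIF2AK3, which encodes PERK (chromosome 2, 88556741 to 88691518), stood at 49.9, 38.4 and 40.9 CPM without Dox and at 55.0, 60.1 and 75 with Dox. The groups did not overlap, and the replicate 3 library with Dox was the highest. It rose 1.48-fold, or a log2 fold change of 0.56 ± 0.16 (adjusted p = 0.0140). The call was lost without that library (log2 fold change 0.42) and without replicate 2 or replicate 3 of the libraries without Dox, the largest adjusted p being 0.0693.

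The other kinases did not pass. EIF2AK4, which encodes GCN2, the sensor of amino acid shortage, stood at 103.7, 136.8 and 107.0 CPM without Dox and at 96.6, 110.8 and 69.6 with Dox. Its groups overlapped, with a log2 fold change of -0.33 ± 0.16 (adjusted p = 0.148). Its value passed as lower without replicate 2 with Dox, where the log2 fold change was -0.49, and with the replicate number as a block (lowest adjusted p 0.0337). EIF2AK1, which encodes HRI, stood at 276.4, 340.5 and 289.6 CPM without Dox and at 330.1, 349.3 and 256.8 with Dox. EIF2AK2, which encodes PKR, stood at 82.5, 70.4 and 85.4 CPM without Dox and at 79.6, 87.9 and 67.4 with Dox. Both overlapped over almost their whole range, with log2 fold changes of 0.05 and -0.03, each ± 0.14, whose sign changed when single libraries were left out and, for EIF2AK2, under upper-quartile factors and library totals alone.

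The counterparts of the kinases are the subunits that bring protein phosphatase 1 to eIF2. PPP1R15A (GADD34), the stress-induced subunit and itself an ATF4 pathway target, stood at 61.3 to 73.5 CPM without Dox and at 81.3 to 86.8 with Dox. The groups did not overlap, yet the log2 fold change of 0.32 ± 0.13 did not pass (adjusted p = 0.0763). It passed as higher under upper-quartile factors and library totals alone (adjusted p as low as 0.0161). PPP1R15B, the subunit made without stress, had a log2 fold change of -0.15 with overlapping groups.

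Of the 6 basic leucine zipper transcription factors tested, ATF5 passed and ATF4 did not. The share called, 16.7%, was below the 25.5% of all genes tested. ATF4 (chromosome 22, 39519695 to 39522683) stood at 254.9, 269.8 and 232.7 CPM without Dox and at 196.6, 223.2 and 198.5 with Dox. Each library with Dox lay below each without Dox. The log2 fold change was -0.29 ± 0.12, not past the threshold (adjusted p = 0.0887, 0.0533 to 0.314 over 14 alternatives).

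ATF5, a factor of the same family whose translation is also raised when eIF2 is phosphorylated and which is known for its part in the mitochondrial stress response, stood at 26.6, 20.5 and 23.9 CPM without Dox and at 51.1, 47.6 and 54.1 with Dox. The groups were far apart compared with their spread. ATF5 (chromosome 19, 49928702 to 49933935) rose 2.15-fold, from 23.7 ± 3.10 to 50.9 ± 3.27 CPM (SD, n = 3 each), or a log2 fold change of 1.10 ± 0.16 (adjusted p = 5.253e-05). It passed in each of 14 alternatives, between 1.01 and 1.23. Whether ATF5 and ATF4 differ in their response was not tested.

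The factors that act further down the pathway did not pass. ATF3, induced by ATF4 and many other stresses, stood at 51.7, 55.5 and 56.6 CPM without Dox and at 60.7, 57.0 and 76.0 with Dox, with a log2 fold change of 0.25 ± 0.14. Its groups were apart by a narrow margin and the adjusted p was 0.224. DDIT3 (CHOP), the factor that links lasting stress to cell death, stood at 28.5, 25.4 and 16.9 CPM without Dox and at 27.0, 26.2 and 24.96 with Dox. Its groups overlapped and its log2 fold change was 0.16 ± 0.20, which was -0.06 without the low replicate 3 library without Dox. CEBPB and CEBPG, the C/EBP partners, had log2 fold changes of -0.29 and -0.28 with overlapping groups. JDP2, a repressor of the AP-1 family, had 3 to 16 counts per library and was not tested.

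**Figure D2:**
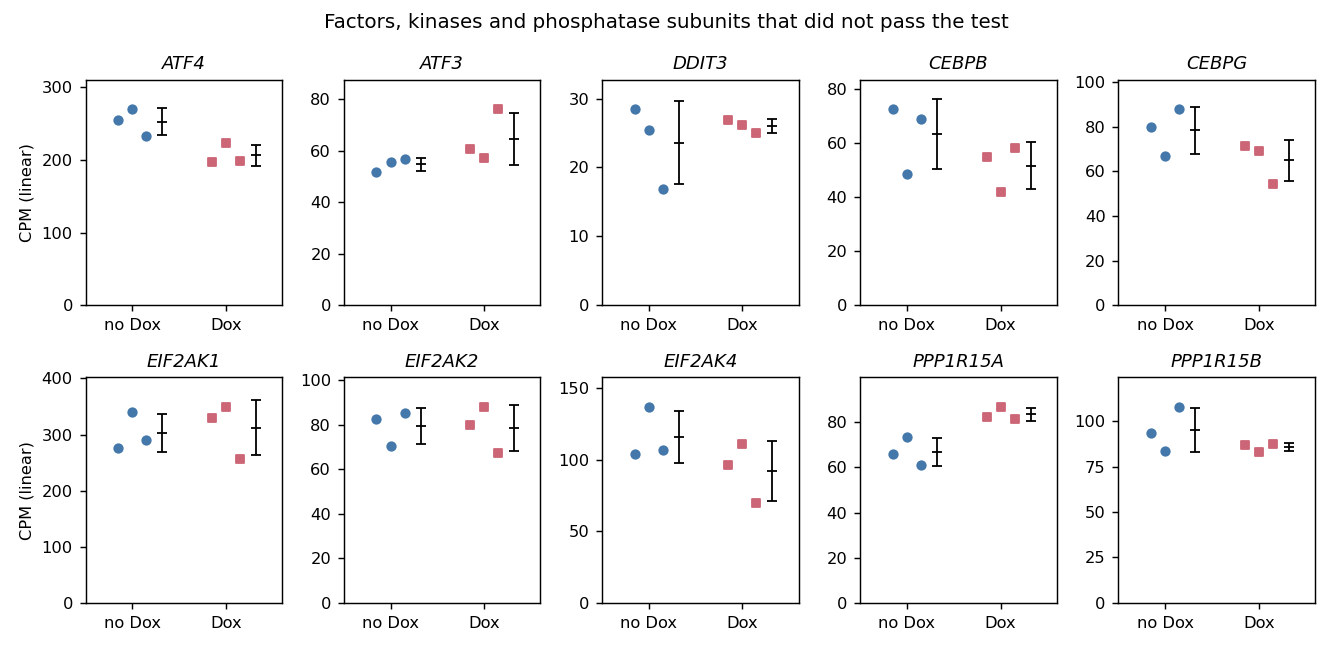
CPM on a linear axis from 0 in each library without Dox (circles) and with Dox (squares), with mean and SD at the right of each group, for 10 transcription factors, kinases and phosphatase subunits that did not pass the test. ATF4, ATF3 and PPP1R15A have groups that do not overlap at small distances, and the other 7 overlap. Of all genes tested, 39.5% have groups that do not overlap.

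Regulators known as ATF4 targets went both ways. CHAC1, which degrades glutathione and is induced through ATF4, ATF3 and CHOP, had 11, 6 and 18 counts without Dox and 23, 23 and 57 with Dox, or 2.87, 1.86 and 3.14 CPM against 5.002, 6.40 and 7.49. Its level was low, and each library with Dox was above each without. CHAC1 (chromosome 15, 40952962 to 40956512) rose 2.35-fold, or a log2 fold change of 1.23 ± 0.34 (adjusted p = 0.0139). The call was lost without replicate 2 without Dox or replicate 3 with Dox (largest adjusted p 0.0632).

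TRIB3, a pseudokinase that ATF4 and CHOP induce and that feeds back on ATF4, stood at 133.2, 140.8 and 146.3 CPM without Dox and at 110.9, 93.8 and 110.1 with Dox. The groups did not overlap. TRIB3 (chromosome 20, 362835 to 397559) fell 1.33-fold, or a log2 fold change of -0.41 ± 0.12 (adjusted p = 0.0208). This call was lost under library totals alone and without replicate 2 or 3 without Dox or replicate 2 with Dox (largest adjusted p 0.0876).

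The larger falls were those of FAM129A and NUPR1. FAM129A (now NIBAN1, chromosome 1), an inhibitor of apoptosis that is induced in the stress response and affects eIF2 phosphorylation, stood at 107.9, 104.8 and 109.8 CPM without Dox and at 39.4, 29.8 and 37.0 with Dox. It was the member with the smallest adjusted p. It fell 3.02-fold, or a log2 fold change of -1.59 ± 0.14 (adjusted p = 2.372e-07). NUPR1, a small stress-induced chromatin regulator on chromosome 16 (28532708 to 28539008), stood at 203.2, 240.3 and 216.3 CPM without Dox and at 121.8, 124.7 and 92.1 with Dox. The replicate 3 library with Dox was the lowest, and the groups were well apart. It had a log2 fold change of -0.97 ± 0.14 (adjusted p = 5.661e-05). Both passed in each of 14 alternatives.

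VLDLR, a lipoprotein receptor that ATF4 can induce, had 22 to 30 counts without Dox and 22 to 100 with Dox. Replicate 2 with Dox, at 6.12 CPM, lay within the range of the libraries without Dox, while the other 2 were at 13.5 and 13.1 CPM. Its log2 fold change of 0.78 ± 0.30 did not pass (adjusted p = 0.0699), but it was 1.02 and passed without that library, and it also passed under library totals alone and without a filter. LONP1, a mitochondrial protease, had a log2 fold change of -0.15 with overlapping groups. STC2, a secreted glycoprotein, had 10 to 28 counts without Dox and 7 to 13 with Dox. In CPM its groups did not overlap, at 3.10 to 4.89 without Dox and 1.71 to 2.83 with Dox. Its log2 fold change of -0.99 ± 0.38 did not pass (adjusted p = 0.0678).

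Of 9 transporters tested, 2 were lower, 1 was higher and 6 did not pass, so that 33.3% were called against 25.5% of all genes tested. SLC1A5 (ASCT2), the exchanger that brings glutamine into many cancer cells, stood at 449.5, 497.7 and 572.4 CPM without Dox and at 272.5, 245.7 and 237.7 with Dox. SLC1A5 (chromosome 19, 46774883 to 46788594) fell 2.01-fold, or a log2 fold change of -1.01 ± 0.13 (adjusted p = 2.046e-05). SLC43A1 (LAT3), a carrier of leucine and other large neutral amino acids known for its role in prostate cancer cells, stood at 35.0, 26.7 and 27.2 CPM without Dox and at 15.9, 11.97 and 11.6 with Dox. SLC43A1 (chromosome 11, 57484534 to 57515780) fell 2.26-fold, or a log2 fold change of -1.18 ± 0.20 (adjusted p = 2.919e-04). In both genes the lowest library without Dox was above the highest with Dox, and both passed in each of 14 alternatives.

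SLC7A11 (xCT), which takes up cystine in exchange for glutamate, went the other way. It stood at 35.0, 24.5 and 38.4 CPM without Dox and at 53.7, 43.4 and 47.4 with Dox. SLC7A11 (chromosome 4, 138164097 to 138242349) rose 1.46-fold, or a log2 fold change of 0.55 ± 0.17 (adjusted p = 0.0262). The call was lost without replicate 1 or 2 without Dox or replicate 1 with Dox, with log2 fold changes from 0.38 and adjusted p up to 0.131.

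SLC3A2 (4F2hc), the heavy chain that pairs with SLC7A11 and SLC7A5 at the cell surface, stood at 43.7 to 50.4 CPM without Dox and at 45.6 to 55.6 with Dox, a log2 fold change of 0.10 ± 0.14. SLC7A5 (LAT1), the light chain that imports leucine, stood at 42.05, 31.6 and 24.96 CPM without Dox and at 19.4, 19.2 and 31.3 with Dox. Replicate 3 with Dox stood apart from its group. The log2 fold change was -0.46 ± 0.22 (adjusted p = 0.143) and -0.76 without that library, where it passed (adjusted p = 0.0166).

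The remaining transporters that were tested did not pass. SLC7A1 (CAT1), the carrier of arginine and lysine, had a log2 fold change of -0.28. Its groups did not overlap, at 94.6 to 104.6 CPM without Dox and 69.85 to 91.55 with Dox. SLC1A4 (ASCT1), a carrier of serine and other small neutral amino acids, had -0.25 with overlapping groups. SLC38A1 and SLC38A2 (SNAT1 and SNAT2), sodium-coupled carriers of glutamine and other neutral amino acids, had log2 fold changes of -0.08 ± 0.12 and 0.04 ± 0.13. SLC38A2, a classic gene of the amino acid response, stood at 477 to 568.9 CPM without Dox and at 521.2 to 605.4 with Dox. SLC38A1 stood at 203.7 to 220.5 CPM without Dox and at 195.9 to 201.9 with Dox, a narrow gap without overlap. The direction of SLC38A1 was the opposite under library totals alone.

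Of 5 amino acid enzymes tested, 3 passed and all 3 were lower, where 13.7% of all genes tested were lower. GPT2, the mitochondrial alanine transaminase, stood at 180.8, 209 and 220.8 CPM without Dox and at 92.8, 92.4 and 90.6 with Dox. The libraries with Dox were close together. GPT2 (chromosome 16, 46884362 to 46931289) fell 2.21-fold, or a log2 fold change of -1.15 ± 0.12 (adjusted p = 3.054e-06).

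PYCR1, which makes proline in mitochondria, stood at 181, 194.8 and 148.7 CPM without Dox and at 99.4, 111.6 and 88.4 with Dox. PYCR1 (chromosome 17, 81932384 to 81942412) fell 1.75-fold, or a log2 fold change of -0.81 ± 0.14 (adjusted p = 3.073e-04). ALDH18A1, the enzyme before it on the way from glutamate to proline, stood at 38.9, 25.4 and 45.2 CPM without Dox and at 43.9, 28.7 and 46.6 with Dox. Its groups overlapped, with a log2 fold change of 0.12 ± 0.21.

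ASNS, asparagine synthetase and the gene in which the amino acid response element was worked out, stood at 113.1, 144.2 and 139.5 CPM without Dox and at 86.8, 89.3 and 82.9 with Dox. The groups did not overlap. ASNS (chromosome 7, 97851677 to 97872542) fell 1.53-fold, or a log2 fold change of -0.62 ± 0.13 (adjusted p = 0.00203). GPT2, PYCR1 and ASNS passed in each of 14 alternatives. CTH, which makes cysteine from cystathionine, had 24 to 57 counts per library and a log2 fold change of 0.08 ± 0.26.

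Among the 12 members that passed are some with another annotated gene within their last 1000 bases or the 200 bases beyond. They include EIF2AK3, SLC7A11 (SLC7A11-AS1) and PYCR1, with the neighbour on the opposite strand, ASNS, with the neighbour on the same strand, and ATF5, with a neighbour on each strand. The use of strand in counting is not stated, and reads from a gene and its antisense partner could then not be told apart. Its part in these values was not tested.

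**Figure D3:**
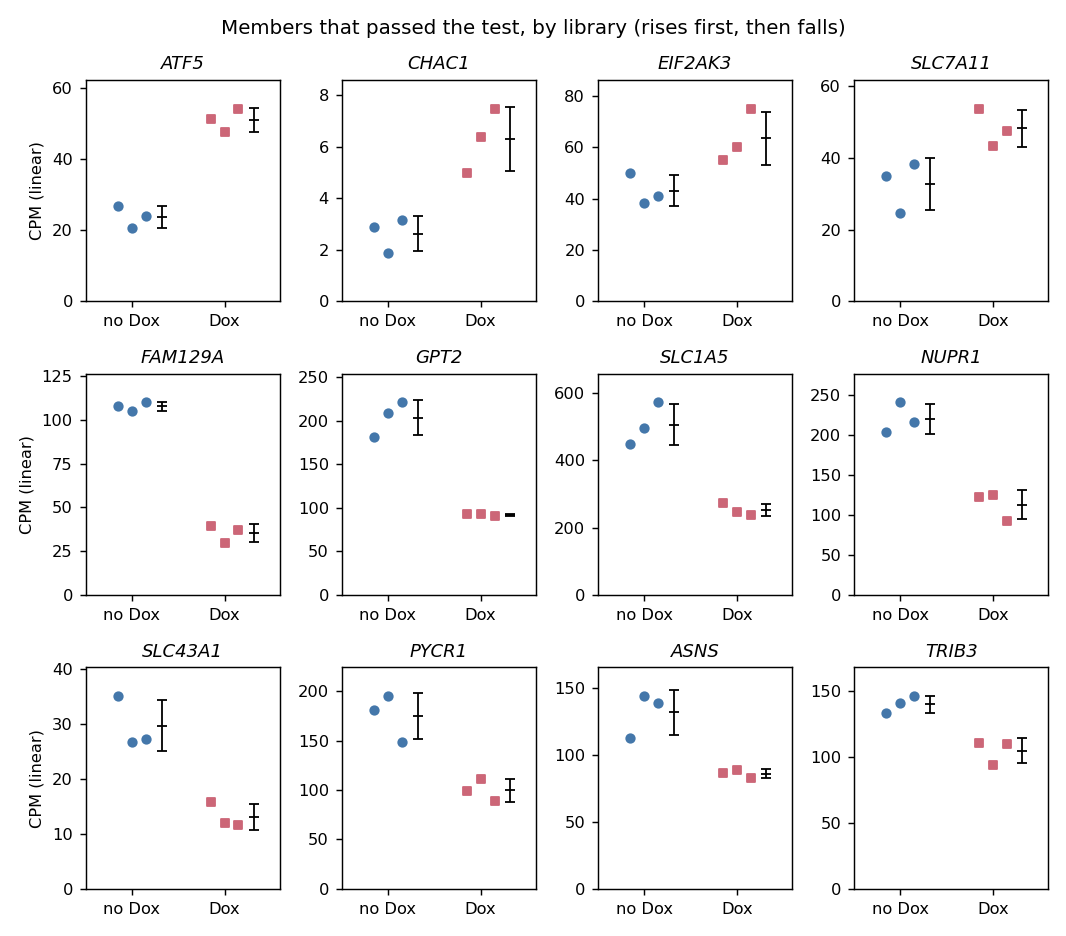
CPM on a linear axis from 0 in each library without Dox (blue circles) and with Dox (red squares), with mean and SD at the right of each group, for the 12 members that passed the test. The 4 rises (ATF5, CHAC1, EIF2AK3, SLC7A11) come first and the 8 falls follow. The groups overlap in none of the 12, which were chosen by the test on these same libraries. Of all genes tested, 39.5% have groups that do not overlap.

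The 5 members that were not tested include 3 with 0 counts in every library, FGF21, SLC7A3 and CBS. A count of 0 allows up to 3 counts, which is 0.394 to 0.930 CPM in these libraries, for counting error only. FGF21, a hormone that ATF4 induces in liver, and SLC7A3, a cationic amino acid carrier, were thus under that limit. The 0 of CBS, which condenses serine with homocysteine, cannot be read as low expression. The build hg38 holds CBSL, a near-identical copy of CBS, which also had 0 counts in all libraries, and reads that match both copies are not unique, so its level cannot be judged from these counts. SLC6A9, a glycine carrier, had 1 to 8 counts without Dox and 5 to 19 with Dox.

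Related genes outside the members were grouped in 5 lists, and in each of them most tested genes did not pass. Of 17 genes for eIF2, eIF2B and kinase regulators, all tested, 3 were higher and 1 lower, and the median log2 fold change was 0.06 against 0.02 over all genes. The share called, 23.5%, was near the 25.5% of all genes. GCN1, which activates GCN2 on stalled ribosomes, stood at 203.5, 215.2 and 211.2 CPM without Dox and at 159.4, 149.4 and 136.7 with Dox. GCN1 was lower with a log2 fold change of -0.50 ± 0.12 (adjusted p = 0.00515). IMPACT, which inhibits GCN2 by competing for GCN1, stood at 24.0, 22.9 and 31.4 CPM without Dox and at 39.6, 45.4 and 48.7 with Dox. IMPACT was higher with a log2 fold change of 0.76 ± 0.17 (adjusted p = 0.00286). Neither gene's groups overlapped, and both passed in each of 14 alternatives. EIF2A, an initiator tRNA factor that is not part of eIF2, rose by 0.41 on the log2 scale. DNAJC3 (p58IPK), a chaperone that restrains PERK and PKR, rose by 0.39, and both lost their calls in 4 of 14 alternatives, each a fit without 1 library.

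The 37 further ATF4 targets moved in both directions. Of 36 tested, 9 were higher and 6 lower, a share of 41.7% called where 25.5% of all genes were, with a median log2 fold change of -0.10 against 0.02 over all genes. The rises with the smallest adjusted p were GADD45A, a growth arrest gene, with a log2 fold change of 1.30, KLHL24 with 0.88 and CDKN1A, which encodes the cell cycle inhibitor p21, with 0.68. The falls were led by PHGDH, the first enzyme of serine synthesis, with -1.18, the secreted factor GDF15 with -0.79 and the heme oxygenase HMOX1 with -0.90. GDF15 stood at 787.8, 706.1 and 675.7 CPM without Dox and at 398.2, 384.9 and 469.7 with Dox. GADD45A, CDKN1A and GDF15 are also known targets of p53, and several genes of this list answer to more than one pathway.

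Of 32 further amino acid transporters, 21 were tested, and 5 were lower and 2 higher (median log2 fold change -0.26). This was 33.3% of them, against 25.5% of all genes. SLC1A3, a glutamate and aspartate carrier, had the largest fall in the list, with a log2 fold change of -1.97 ± 0.37 (adjusted p = 7.975e-04). It was low, at 6.98 to 8.99 CPM without Dox and 0.835 to 2.89 with Dox. The taurine carrier SLC6A6 had -1.39 and the cationic amino acid carrier SLC7A2 -0.64. SLC36A1 (PAT1), a carrier that exports amino acids from the lysosome, stood at 26.9, 22.0 and 25.5 CPM without Dox and at 58.7, 48.4 and 55.4 with Dox. It rose by 1.12 on the log2 scale (standard error 0.16, adjusted p = 3.93e-05), and SLC38A6 rose by 1.08.

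Of 18 other amino acid enzymes tested out of 22, 4 were lower and 14 did not pass. The 22.2% called were all lower, where 13.7% of all genes tested were lower and 25.5% passed in either direction. ASRGL1, which hydrolyses asparagine to aspartate, stood at 533.6, 620.9 and 587.6 CPM without Dox and at 326.2, 292.8 and 253.1 with Dox, a log2 fold change of -0.999. The aspartate transaminase GOT1 had -0.61 and the sulfite oxidase SUOX -0.41, which lost its call in 4 of 14 alternatives. Of 29 genes for amino acid sensing by mTORC1, all tested, 3 passed, a share of 10.3% against the background of 25.5%. FNIP2, a partner of folliculin, had a log2 fold change of -0.80. WDR59, a subunit of GATOR2, had 0.68 and SESN3, a sestrin, 0.49, and these 2 rises lost their calls in 2 and 5 of 14 alternatives.

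**Figure D4:**
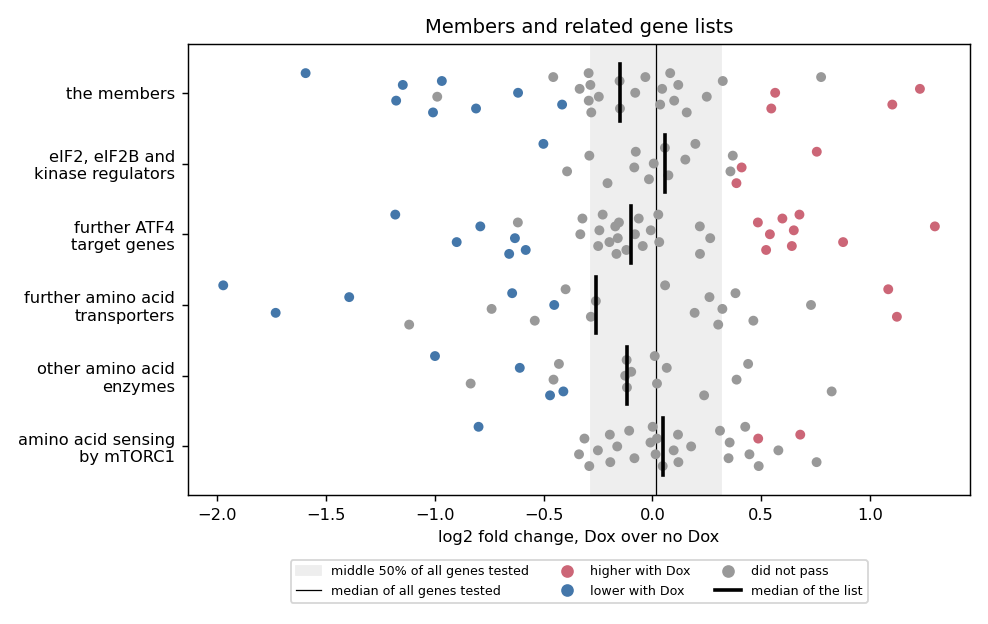
Log2 fold change, Dox over no Dox, of each tested gene in the members and in 5 related lists, coloured by the test (red higher, blue lower, grey did not pass), with the median of each list as a thick bar. The grey band spans the middle 50% of all 12233 genes tested (-0.28 to 0.32), and each list has genes that passed on both sides of it except the other amino acid enzymes, where those that passed are all lower.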

How the data were processed

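RNA was sequenced as 3ʹ mRNA libraries (QuantSeq) in 100 bp single-end reads. Per the labels and the methods, the authors demultiplexed reads with CASAVA 1.8.2, checked them with FastQC and mapped them to hg38 with STAR, and the processing notes name HTSeq and edgeR. Neither the gene annotation nor the strand setting is given in the sources used here, and kit names differ (FWD in the labels, REV in the methods). The authors deposited a table of raw counts by gene symbol, without normalization, which was used here, and, for each library, a normalized signal scaled by a method that is not given, used as an alternative (log2(value + 1), limma-trend). Rows that name no gene stayed out of library sizes and tests (no gene, 32.5% to 39.5%, and ambiguous, 3.05% to 3.37%, of the reads listed).

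Counts were tested with edgeR 4.0.16 (TMM, filterByExpr, quasi-likelihood, Benjamini-Hochberg) in R 4.3.3, with limma 3.58.1 and DESeq2 1.42.0 for alternatives. The test was tried on simulated counts of 12233 genes with these library sizes, where 200 genes were changed. It found 77% of the genes changed 2-fold and 94% of those changed 4-fold, and 8.06% of its calls were false. In the data 25.5% of the genes tested passed, so these shares need not hold there. Replicates differed beyond sampling noise in each pair (chi-square per degree of freedom 4.24 to 12.6), so each library counted as 1 sample. Members and lists, compiled by hand, were chosen with earlier results of these data known, and aliases in the lists were resolved to the symbol that the table uses. Values in every library are given for the kinases, for ATF4, ATF3, DDIT3, TRIB3, CHAC1 and ASNS and for members that passed, and each related list is represented by up to 3 rises and 3 falls of lowest adjusted p. Library values of other genes, and the short windows around TGATGNAA, were chosen after values were seen. GENCODE 44 (hg38) gave the coordinates. Alternatives were other normalizations, filters, tests and values, the replicate number as a block, and the omission of single libraries. Other assays of the study were not analysed here.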

Additional observations from a re-analysis of the deposited data

How the results depend on the processing

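The alternatives were 3 normalizations, 2 filters, DESeq2, the deposited normalized values, a replicate block and 6 fits with a single library omitted, 14 in all. The ABHD5 log2 fold change stayed between 0.81 and 1.06 and passed in each, and the genes changed over all genes tested numbered 2181 to 3537. The members lower with Dox numbered 7 to 9, and those higher 1 to 6. With a single library omitted there were 7 to 9 lower and 1 to 5 higher members, the smallest number of rises coming without replicate 2 without Dox (1, ATF5) and without replicate 3 with Dox (2, ATF5 and SLC7A11). Of the 12 members that passed, 8 kept their call in each alternative (ATF5, NUPR1, FAM129A, SLC1A5, SLC43A1, ASNS, PYCR1 and GPT2), and EIF2AK3, TRIB3, CHAC1 and SLC7A11 did not.

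Among members and related genes named, signs changed only for members with small log2 fold changes that did not pass. EIF2AK2 was 0.0236 under upper-quartile factors and 0.0890 under library totals alone, and SLC38A1 was 0.0432 under library totals alone. With a single library omitted the log2 fold change ranged from -0.0448 to 0.169 for EIF2AK1, -0.124 to 0.0694 for EIF2AK2, -0.0583 to 0.307 for DDIT3, -0.0483 to 0.0784 for SLC38A2, -0.0688 to 0.211 for CTH and -0.0792 to 0.309 for ALDH18A1. The median log2 fold change of the tested members moved from -0.15 to -0.03 under library totals alone, where that of all genes moved from 0.02 to 0.14. The cause was not tested.

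Replicate numbers were not taken as pairs, since the deviations of libraries with the same number from their group means had r of -0.0106, 0.245 and 0.0856 across genes, and 2 of 6 libraries correlated best with their own number. The other best matches were mutual. They joined replicate 1 without Dox to replicate 3 with Dox, and replicate 3 without Dox to replicate 1 with Dox. The cause of these matches was not tested. With the replicate block, 3537 genes passed in place of 3125, with 9 lower and 4 higher members. EIF2AK4 was the added fall.

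In the self-test 77% of the genes changed 2-fold were found, which limits what can be said of the smaller differences.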
